A study of Homo sapiens with 6 samples.

Results

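The 7 genes ANO3, PTPRB, INPP4B, ZNF608, NEB, ABLIM1 and ABCB4 were chosen by their measured rise in nascent transcription with both siRNAs against SFPQ, and because they come from unrelated gene families. All 7 were found by symbol among the 25827 features of the normalized read table, and all 7 were among the 21773 features that passed the filter on low values. Nascent RNA was measured by PRO-seq, which sequences the RNA that engaged RNA polymerases extend in permeabilized cells. The cells were SBC-3, an established line of human small cell lung cancer whose genotype is labelled wild type. Cells were transfected at 10 nM with siSFPQ-3, siSFPQ-2 or the control siRNA siCtrl and harvested after 72 h, and each of the 3 groups has 2 libraries. SFPQ is a nuclear protein that binds nucleic acids and is a component of paraspeckles, and the study asks how its depletion changes the transcription of microRNA precursors. Since the difference between siSFPQ and siCtrl chose the 7 genes, it is given for them as a description and not tested.

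The whole reads recovered from the values of the 25827 features summed to between 12072813 and 18475158 per library. Whether the libraries of each group were made from different cultures is not stated in the labels, and the spread that p-values rest on may be technical. SFPQ itself had 1922 and 2466 normalized reads with siSFPQ-3, 1825 and 1972 with siSFPQ-2, and 2294 and 2435 with siCtrl. Its log2 fold change of siSFPQ over siCtrl was -0.22 (SE 0.11), which did not pass the threshold of 0.05 (limma, Benjamini-Hochberg adjusted p = 0.137; adjusted p = 0.0256 without the second siSFPQ-3 library). An siRNA acts on the mature mRNA, so the nascent reads of SFPQ do not check the knockdown. Of 12 markers of small cell lung cancer and neuroendocrine cells, 6 were tested, of which 2 passed as lower and 4 did not pass (median log2 fold change -0.61). Synaptophysin (SYP) averaged 292 normalized reads with siSFPQ and 254 with siCtrl, NEUROD1 15.5 and 29.1, and INSM1 and NCAM1 had no row in the table used here.

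The 7 proteins act at different places in the cell. ANO3 belongs to the anoctamins, a family of membrane proteins that holds calcium-activated ion channels and lipid scramblases, and variants of it are known from inherited dystonia. ABCB4 is an ABC transporter that moves phosphatidylcholine into bile at the canalicular membrane of hepatocytes. PTPRB is the receptor-type tyrosine phosphatase of endothelial cells, also called VE-PTP, which acts on the receptor TEK and on cadherin junctions. INPP4B is a lipid phosphatase that removes a phosphate from a phosphoinositide made downstream of PI3K. NEB encodes nebulin, the giant protein that runs along the thin filaments of skeletal muscle, and ABLIM1 is a LIM protein that binds actin. ZNF608 is a zinc finger protein, and its paralogue is ZNF609.

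All 7 are long genes in the RefSeq table (GRCh38.p14). Their spans run between 110 kb for ABCB4 and 823 kb for INPP4B, against a median of 24.5 kb over the 16697 tested features with a span. ANO3 lies on chromosome 11 (26188808 to 26663289), ABCB4 on chromosome 7 (87365896 to 87476027), PTPRB on chromosome 12 (70515870 to 70637429) and INPP4B on chromosome 4 (142023160 to 142846535). NEB lies on chromosome 2 (151485339 to 151734476), ABLIM1 on chromosome 10 (114431110 to 114801373) and ZNF608 on chromosome 5 (124636915 to 124748824). Among the 2360 tested features at least as long as ABCB4, 49.3% passed the threshold as higher with siSFPQ and 12.9% as lower. Among the shorter features, 22.9% were higher and 24.5% lower. Length therefore moved with the direction of change across the whole table, and its part in the rise of the 7 genes was not tested.

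Promoter sequences are shown because the 7 genes were chosen for their rises with both siRNAs, so that their being higher together is no finding. Another reason is that the signal of ANO3 and INPP4B was higher past some RefSeq starts inside these genes. RefSeq promoters (GRCh38.p14) were matched by symbol for 5 of the 7 genes, with 17 entries in all, and the 250 bases before the start are printed 5′ to 3′ on the strand of the gene. Capitals mark matches, on either strand, to the AP-1 motif TGANTCA, the CRE motif TGACGTC, the RUNX motif TGTGGT, the TEAD motif GGAATG, the TATA box TATAAA, the GC box GGGCGG and CCAAT. The first 5 windows precede the first start that the promoter table lists for the gene, which for ABLIM1 lies 33.1 kb inside its span, and the last 2 precede starts further inside the gene.
ANO3, chr11:26188558-26188807, plus strand: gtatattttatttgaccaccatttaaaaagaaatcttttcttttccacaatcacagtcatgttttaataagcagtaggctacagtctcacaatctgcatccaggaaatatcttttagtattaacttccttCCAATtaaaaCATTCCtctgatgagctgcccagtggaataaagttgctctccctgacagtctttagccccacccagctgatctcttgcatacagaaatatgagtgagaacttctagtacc
INPP4B, chr4:142846302-142846551, minus strand: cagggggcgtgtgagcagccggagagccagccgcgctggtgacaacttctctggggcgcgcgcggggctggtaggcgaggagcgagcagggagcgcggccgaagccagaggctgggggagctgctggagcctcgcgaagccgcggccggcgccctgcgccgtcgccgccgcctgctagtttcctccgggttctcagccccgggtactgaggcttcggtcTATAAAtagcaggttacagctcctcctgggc
ABLIM1, chr10:114768305-114768554, minus strand: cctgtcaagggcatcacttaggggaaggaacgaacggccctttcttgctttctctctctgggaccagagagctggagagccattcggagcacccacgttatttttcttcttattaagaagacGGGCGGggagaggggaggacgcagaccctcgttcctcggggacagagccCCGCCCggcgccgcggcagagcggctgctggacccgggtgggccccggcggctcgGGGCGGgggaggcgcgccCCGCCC
NEB, chr2:151734477-151734726, minus strand: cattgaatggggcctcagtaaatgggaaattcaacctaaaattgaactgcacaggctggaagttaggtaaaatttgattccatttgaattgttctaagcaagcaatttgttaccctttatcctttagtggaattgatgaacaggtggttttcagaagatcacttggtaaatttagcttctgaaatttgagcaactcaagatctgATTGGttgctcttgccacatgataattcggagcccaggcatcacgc
ZNF608, chr5:124748825-124749074, minus strand: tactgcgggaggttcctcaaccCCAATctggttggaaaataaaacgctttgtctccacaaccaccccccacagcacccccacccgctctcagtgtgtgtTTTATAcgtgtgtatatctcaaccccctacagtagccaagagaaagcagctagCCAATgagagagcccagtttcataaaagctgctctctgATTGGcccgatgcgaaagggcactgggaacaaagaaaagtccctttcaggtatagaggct
ANO3, internal, chr11:26473705-26473954, plus strand: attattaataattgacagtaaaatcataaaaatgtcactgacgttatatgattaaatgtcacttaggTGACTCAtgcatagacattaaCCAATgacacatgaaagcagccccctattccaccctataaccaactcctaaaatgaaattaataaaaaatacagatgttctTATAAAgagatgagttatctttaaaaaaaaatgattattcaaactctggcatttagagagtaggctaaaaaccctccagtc
INPP4B, internal, chr4:142405860-142406109, minus strand: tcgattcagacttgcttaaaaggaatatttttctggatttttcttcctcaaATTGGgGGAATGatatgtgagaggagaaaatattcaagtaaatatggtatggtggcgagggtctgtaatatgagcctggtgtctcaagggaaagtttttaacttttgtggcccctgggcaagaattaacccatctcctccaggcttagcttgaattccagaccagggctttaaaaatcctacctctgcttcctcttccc

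These windows differ widely in base composition. The outermost windows of INPP4B and ABLIM1 are rich in GC (70.8% and 67.2%) and hold 27 and 23 CpG dinucleotides, against a median of 11 over the 35116 promoters of the table. The outermost ANO3 window has 37.6% GC and 0 CpG dinucleotides, that of NEB 39.2% and 2, and that of ZNF608 50.4% and 6. The AP-1 motif was found in the internal ANO3 window and in none of the other 6 windows shown, and 6.57% of all promoters hold it. The TEAD motif was found in the outermost ANO3 window and the internal INPP4B window, and 11.9% of all promoters hold it. The TATA box motif was matched in the outermost windows of INPP4B and ZNF608 and in the internal ANO3 window, against 10.7% of all promoters. These matches start at base 220, base 100 (opposite strand) and base 170 of the 250. A match anywhere in the window was counted, whatever its distance to the start. ABLIM1 has 4 GC boxes (42.6% of all promoters hold at least 1), and ZNF608 has 3 CCAAT matches (32.0% of all promoters hold at least 1). Of the 10 windows not shown, that of an INPP4B start close to the one shown (142405446) holds a RUNX match. No RUNX or CRE match lies in the 7 windows shown, and 11.0% and 3.12% of all promoters hold one. No single motif of the 7 is shared by all 5 outermost windows.

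The levels follow as deposited normalized reads, in which each library is scaled by 1 factor. ANO3 had 3305 and 3345 normalized reads with siSFPQ-3, 2492 and 2928 with siSFPQ-2, and 231 and 181 with siCtrl. The siSFPQ libraries averaged 3017 ± 398 (SD, n = 4) and the siCtrl libraries 206 ± 35.7 (SD, n = 2). The difference was 3.87 (SE 0.12) or 14.6-fold on the log2(value + 1) scale. Every siSFPQ library lay far above both siCtrl libraries, and 46 of the 21773 features had a larger log2 fold change. In bulk samples, more cells that transcribe a gene and more transcription per cell cannot be told apart. ABCB4 had 2444 and 2686 normalized reads with siSFPQ-3, 1266 and 1423 with siSFPQ-2, and 540 and 553 with siCtrl. Its mean was 1955 ± 714 with siSFPQ (SD, n = 4) and 547 ± 8.79 with siCtrl (SD, n = 2), which is 1.76 on the log2 scale (SE 0.10) or 3.39-fold. ABCB4 had the smallest rise of the 7 genes, with 771 features above it, and both siSFPQ-3 libraries stood well above both siSFPQ-2 libraries.

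The phosphatases PTPRB and INPP4B stood higher in each siSFPQ library too, and more so with siSFPQ-3. PTPRB had 1987 and 2332 normalized reads with siSFPQ-3, 1153 and 1530 with siSFPQ-2, and 99.6 and 123 with siCtrl. That is a mean of 1751 ± 516 with siSFPQ (SD, n = 4) against 111 ± 16.5 with siCtrl (SD, n = 2). Its log2 fold change, the largest of the 7 genes, was 3.92 (SE 0.14) or 15.2-fold. INPP4B had 1710 and 1728 normalized reads with siSFPQ-3, 930 and 1028 with siSFPQ-2, and 159 and 185 with siCtrl. Its log2 fold change was 2.91 (SE 0.10) or 7.53-fold, with 3.32 for siSFPQ-3 and 2.51 for siSFPQ-2.

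Both genes of the actin cytoskeleton were low with siCtrl. NEB had 1154 and 978 normalized reads with siSFPQ-3, 904 and 992 with siSFPQ-2, and 104 and 103 with siCtrl, which gives a log2 fold change of 3.26 (SE 0.11) or 9.59-fold. NEB is the one gene of the 7 whose siSFPQ-3 and siSFPQ-2 libraries overlapped. ABLIM1 had 630 and 650 normalized reads with siSFPQ-3, 280 and 309 with siSFPQ-2, and 61.4 and 68.7 with siCtrl, a log2 fold change of 2.72 (SE 0.12) or 6.60-fold. It rests on the fewest control reads, 139 in both siCtrl libraries together. ZNF608 had 3393 and 3351 normalized reads with siSFPQ-3, 2446 and 2980 with siSFPQ-2, and 253 and 254 with siCtrl. Its mean was 3043 ± 439 with siSFPQ (SD, n = 4) and 254 ± 0.173 with siCtrl (SD, n = 2), which is 3.57 on the log2 scale (SE 0.10) or 11.9-fold. In all 7 genes the 4 siSFPQ libraries lay above both siCtrl libraries, as they did in 30.3% of all tested features, and 24.8% of all tested features passed the threshold as higher. Both shares are background for a contrast that chose the 7 genes. The authors' deposited table gave log2 fold changes between 1.84 for ABCB4 and 3.98 for PTPRB.

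**Figure D1:**
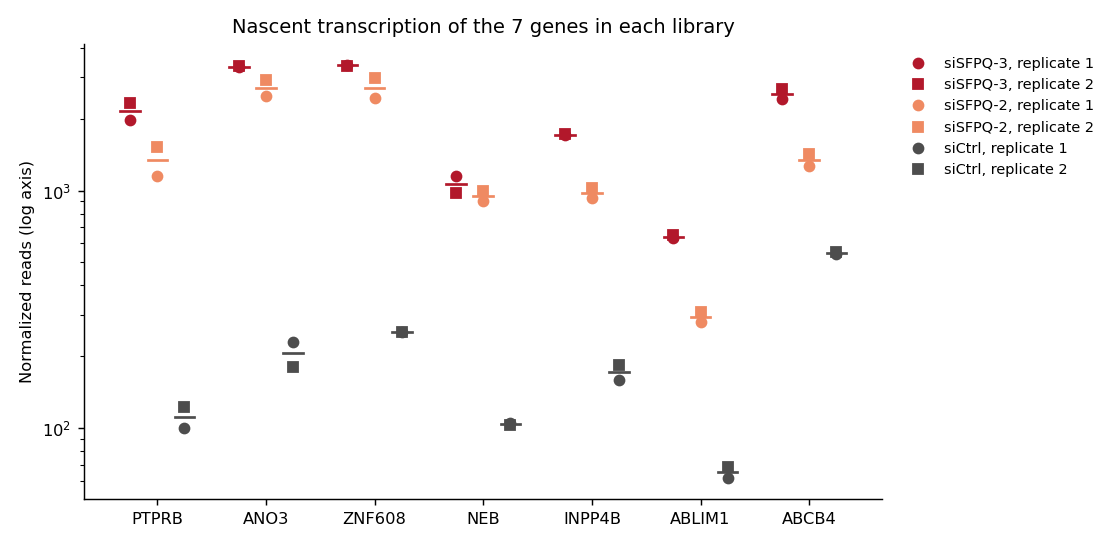
Normalized reads of the 7 genes in each library on a log axis, with siSFPQ-3, siSFPQ-2 and siCtrl next to each other for each gene, circles and squares for the 2 replicates and short lines for the group means. Every siSFPQ point lies above the siCtrl points of its gene, and siSFPQ-3 lies above siSFPQ-2 without overlap in 6 of the 7 genes.

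The genes were chosen by rises with both siRNAs and not by the difference between the siRNAs, so this difference was tested. They were chosen with earlier results of these data known. The mean was higher with siSFPQ-3 than with siSFPQ-2 in 7 of 7 genes, and the share of all features with a higher mean was not counted. With the libraries set to the same total, all 7 differences were smaller, between 0.095 for NEB and 1.05 for ABLIM1 on the log2 scale. Both siSFPQ-3 libraries lay above both siSFPQ-2 libraries in 6 of 7, as in 22% of all tested features. ABLIM1, INPP4B and ABCB4 passed the threshold, 3 of 7 genes where 0.101% of all tested features passed (22 of 21773). Of the 17 features that passed as higher with siSFPQ-3, 12 had also passed as higher than siCtrl, these 3 among them. The share over all features is not the share among strongly rising genes, which was not counted. ABLIM1 was 2.17-fold higher with siSFPQ-3 (log2 difference 1.12, SE 0.14, limma adjusted p = 0.0458). ABCB4 was 1.91-fold higher (log2 difference 0.93, SE 0.11, limma adjusted p = 0.0349) and INPP4B 1.76-fold higher (log2 difference 0.81, SE 0.12, limma adjusted p = 0.0477). In these 3 genes every siSFPQ-3 library stood clear of every siSFPQ-2 library.

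The other 4 genes did not pass. The log2 difference between siSFPQ-3 and siSFPQ-2 was 0.70 for PTPRB (95% interval 0.34 to 1.05, limma adjusted p = 0.118), 0.32 for ZNF608 (0.06 to 0.58, adjusted p = 0.292), 0.30 for ANO3 (0.00 to 0.60, adjusted p = 0.399) and 0.17 for NEB (-0.11 to 0.44, adjusted p = 0.642). These intervals are those of single genes, not corrected for the number of features, and they leave room for a difference of up to 2.07-fold in PTPRB and 1.36-fold in NEB. PTPRB passed with DESeq2 (adjusted p = 0.0104), and that tool called 255 features between the siRNAs, against 51 with edgeR's quasi-likelihood test. The 3 calls lie close to the threshold. They were lost when the libraries were set to the same total (adjusted p = 0.0932 for ABLIM1, 0.0920 for ABCB4 and 0.120 for INPP4B), without either siCtrl library (0.157 to 0.172) and without the second siSFPQ-2 library (0.134 to 0.174). ABLIM1 and INPP4B were also lost at a minimum value of 50 (0.0553 and 0.0571), and INPP4B at a pseudocount of 0.1 (0.0547) and without the second siSFPQ-3 library (0.0564). All 3 passed with edgeR (0.0252, 0.0252 and 0.0310), with DESeq2 and in limma with a block by replicate number (8.7e-04, 5.6e-04 and 1.3e-03). The 3 log2 differences were unchanged without either siCtrl library, since siCtrl enters only the shared estimate of spread.

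**Figure D2:**
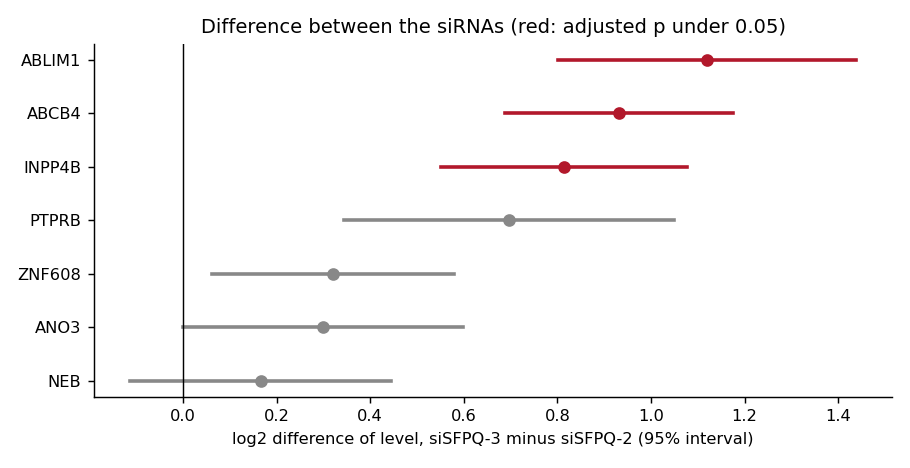
Difference of log2 level between siSFPQ-3 and siSFPQ-2 for each of the 7 genes, with 95% intervals of the single gene from the limma fit and red marking an adjusted p under 0.05. All 7 estimates lie above 0, and those of ABLIM1, ABCB4 and INPP4B, between 0.81 and 1.12, are marked.

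The deposited profiles show where along each gene the polymerase signal lay. Each gene has 500 bins, of which the first 100 and the last 100 were taken as the flanks and the 300 between them as the gene, scaled to a common length. This layout is an assumption. How many bases a flank bin covers is not stated. Low values in the flanks took steps that differed between plus- and minus-strand genes, so each profile holds the signal of 1 strand. The mean signal of the flank ahead of the start, the first 10 gene bins, the body and the flank past the end was higher with siSFPQ in all 7 genes. Within the gene this follows from the choice of the genes by their rise. For the flanks it is a description, and the share of all genes with a higher flank signal was not counted. Within the flank ahead of ABCB4, 2 neighbouring means of 10 bins were lower, at 106 and 147 with siSFPQ-3 and 106 and 161 with siSFPQ-2, against 113 and 205 with siCtrl. Ahead of INPP4B, neighbouring means were lower with siSFPQ-2 only, at 14.62, 10.51 and 2.86, against 14.69, 10.59 and 5.84 with siCtrl.

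Most of the 7 genes had their highest mean of 10 bins in the flank taken as ahead of the annotated start. Gene bins are wider in longer genes and the width of flank bins is not stated. Signal in the flank and in the gene is therefore not on a known common scale, and the place of the highest bins depends on the bin widths. PTPRB peaked in bins 81 to 90 in every group, at 670 with siSFPQ-3, 626 with siSFPQ-2 and 42.8 with siCtrl. ABCB4 peaked in the same bins, at 1096 with siSFPQ-3, 806 with siSFPQ-2 and 452 with siCtrl. ABLIM1 peaked in bins 91 to 100, at 212 with siSFPQ-3, 106 with siSFPQ-2 and 19.8 with siCtrl. These 3 genes thus kept the place of their peak in all groups. INPP4B peaked in bins 81 to 90 with siSFPQ-3 (102) and siSFPQ-2 (60.0), and in bins 31 to 40 with siCtrl (14.7), where few reads fell. In ZNF608 the mean signal per bin was about as high in the flank ahead of the start as in the first 10 gene bins. The mean upstream signal of ZNF608 was 191 with siSFPQ and 18.1 with siCtrl, and its signal in the first 10 gene bins 175 and 14.4.

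Along the gene body the siSFPQ signal of ANO3 was higher toward the end. It averaged 12.3 in the first 97 bins of the body, 17.7 in the middle 97 and 19.0 in the last 96 with siSFPQ, against 1.31, 1.11 and 1.22 with siCtrl. The log2 ratio of the late to the early bins of ANO3 was 0.66 and 0.45 with siSFPQ-3, 0.64 and 0.76 with siSFPQ-2, and 0.17 and -0.45 with siCtrl. The difference was 0.77 (SE 0.26, limma adjusted p = 0.234), and 1.08 and 0.46 without the first and without the second siCtrl library. NEB had ratios of 0.04 and -0.13 with siSFPQ-3, -0.01 and 0.04 with siSFPQ-2, and -0.71 and -1.13 with siCtrl (difference 0.91, SE 0.22, limma adjusted p = 0.141). The NEB difference was 0.11 (adjusted p = 0.796) when the body was split into equal early and late parts. PTPRB went the other way, with a mean of 0.21 with siSFPQ and 0.99 with siCtrl (difference -0.78, SE 0.39, adjusted p = 0.380), and the difference was -1.40 without the first siCtrl library and -0.16 without the second. INPP4B, ZNF608, ABLIM1 and ABCB4 had differences between -0.23 and 0.22. In ANO3, NEB and INPP4B all 4 siSFPQ libraries lay above both siCtrl libraries, as in 16.6% of all genes fitted. None of the 7 genes passed the threshold, and neither did any of the 25984 genes fitted with limma (0%), of which 4600 (17.7%) had an unadjusted p under 0.05. The ratio was fitted with limma alone. The siCtrl profiles rest on few reads, which limits what these ratios can show.

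The other ratios have the gene body in the denominator, which the choice of the genes used, so they are descriptions with no test. The upstream signal of ABCB4 was 1.64-fold higher with siSFPQ, against 3.33-fold for its body. Its log2 ratio of upstream to body signal was 1.25 and 1.26 with siSFPQ-3, 1.96 and 1.70 with siSFPQ-2, and 2.51 and 2.50 with siCtrl. The siSFPQ-3 libraries, with the highest body signal, had the lowest ratio, and the siCtrl libraries the highest. ANO3 had a mean upstream ratio of -1.19 with siSFPQ and -0.16 with siCtrl, a difference of -1.03, which was -0.66 without the first siCtrl library and -1.40 without the second. PTPRB had a start-to-body ratio of 0.64 ± 0.25 with siSFPQ (SD, n = 4) and -1.02 ± 0.80 with siCtrl (SD, n = 2), so that its first 10 gene bins were 42.7-fold higher and its body 14.3-fold. The difference of 1.66 was 2.23 without the first siCtrl library and 1.09 without the second. For ZNF608, INPP4B, ABLIM1 and ABCB4 the difference in the start-to-body ratio lay between -0.29 and 0.31. Past the annotated end, the NEB signal was 0 in the first siCtrl library and 2.64 in the second, against 18.6 to 31.0 with siSFPQ, so the difference in its past-end ratio, 2.73, was -0.40 without the first siCtrl library and 5.87 without the second.

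**Figure D3:**
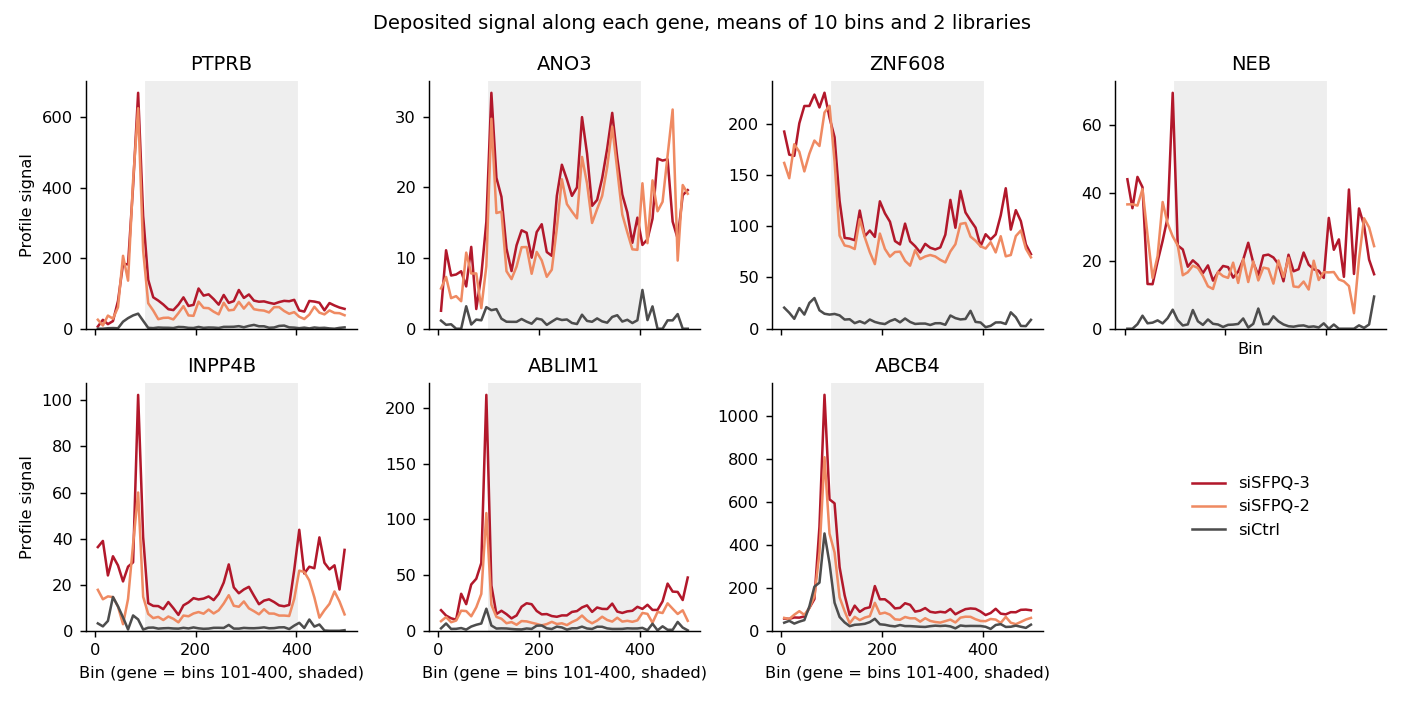
Deposited signal along each gene, as means of 10 bins and of the 2 libraries of a group, with the 300 gene bins shaded. The siSFPQ lines lie above the siCtrl line through the gene in all 7. PTPRB, INPP4B, ABLIM1 and ABCB4 show a peak in the bins just ahead of the shaded ones, whose width is not stated.

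**Figure D4:**
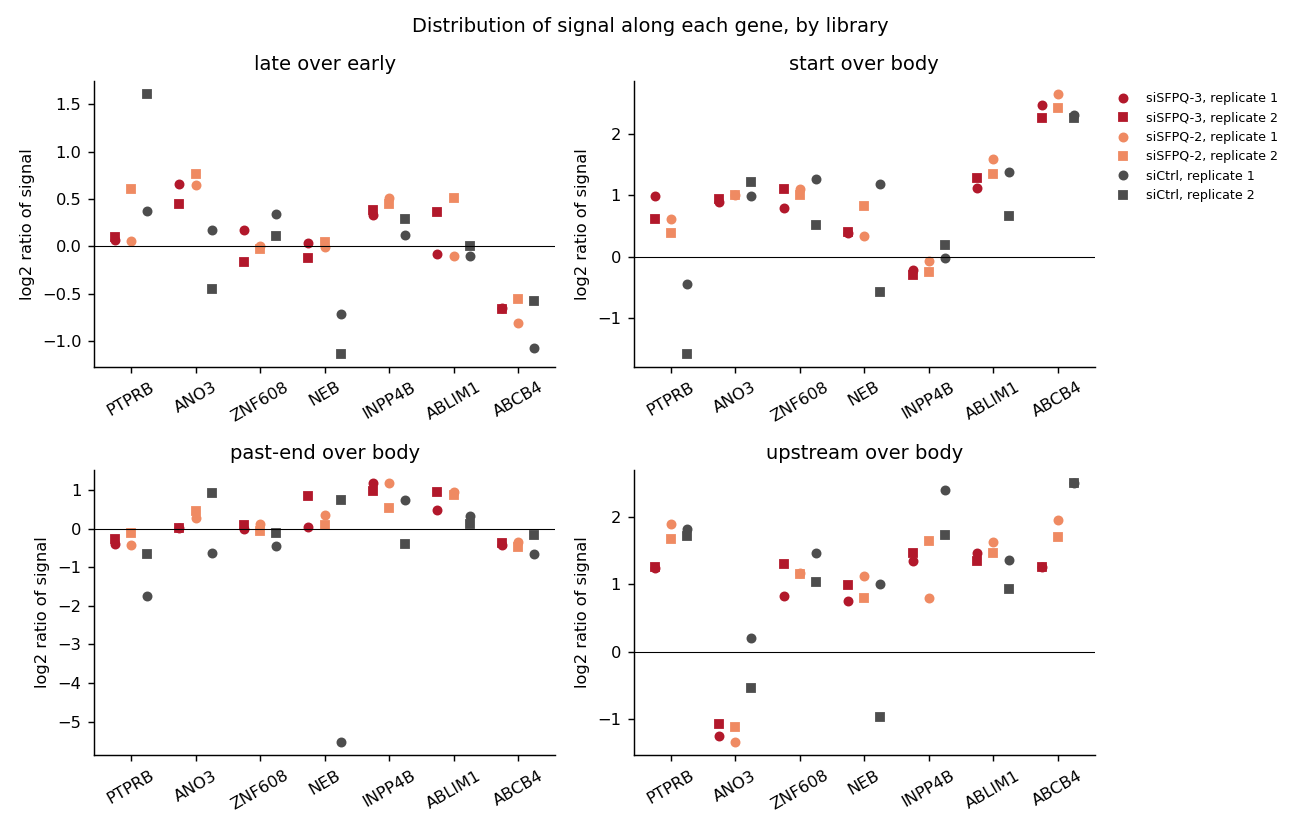
Log2 ratios of signal between windows of each gene, by library, for the late over the early bins of the body, the first 10 gene bins over the body, the bins past the end over the body and the upstream bins over the body. The siCtrl libraries lie far from each other in several ratios of PTPRB and NEB, and the upstream ratio of ABCB4 is lowest with siSFPQ-3 and highest with siCtrl.

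Internal starts were compared with the profiles of the 3 genes that have them in the RefSeq table, assuming that the 300 gene bins span the RefSeq gene evenly. At the ANO3 start 285 kb into the gene (position 26473955), the siSFPQ signal averaged 26.4 in the 15 bins after it and 17.9 in the 15 bins before it. It was higher after the start in 4 of 4 siSFPQ libraries and in 2 of 2 siCtrl libraries, where the means were 1.70 and 0.79. At the ANO3 start 143 kb into the gene the siSFPQ means were 12.2 after and 9.82 before, again higher after in 4 of 4 siSFPQ and 2 of 2 siCtrl libraries. Of these 2 ANO3 windows only that of the start at 285 kb holds an AP-1 match, and any part of the motif in the signal was not tested. At the INPP4B start 441 kb into the gene (position 142405859) the siSFPQ signal averaged 20.0 after and 15.4 before, in the same direction in 4 of 4 siSFPQ libraries and 2 of 2 siCtrl libraries. At the INPP4B starts 541 kb into the gene it averaged 13.9 after and 14.7 before. The 6 internal ABLIM1 starts had no common direction, with ratios of after to before between 0.70 and 1.22 with siSFPQ. These positions were looked at after the profiles were seen, and no test was made.

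The neighbouring genes were not chosen by their change, and were tested. Of the 17 tested neighbours, taken as the nearest on each side and any that overlap, 7 passed the threshold as higher with siSFPQ, 1 as lower and 9 did not pass, beside 24.8% higher and 23.2% lower over all tested features. Of these 7 neighbours, ANO3-AS1 and KRT18P16 passed the filter on low values only through the siSFPQ libraries, so their calls support nothing and only their values are given. KCNMB4, a potassium channel subunit 81.6 kb from PTPRB, averaged 1093 ± 28.4 with siSFPQ (SD, n = 4) and 426 ± 38.7 with siCtrl (SD, n = 2), a log2 fold change of 1.36 (limma adjusted p = 2.2e-06). LGR5, on the other side of PTPRB, stood at 0.04 on the log2 scale (adjusted p = 0.906). Between siSFPQ-3 and siSFPQ-2, KCNMB4 had a log2 difference of -0.05 (adjusted p = 0.898).

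ABCB4 lies in a cluster with ABCB1, which encodes the drug efflux pump P-glycoprotein and whose nearest end lies 27.0 kb away. ABCB1 averaged 69.3 ± 14.6 with siSFPQ (SD, n = 4) and 66.5 ± 6.18 with siCtrl (SD, n = 2), a log2 fold change of 0.04 (adjusted p = 0.885). CROT, a peroxisomal acyltransferase gene whose span overlaps ABCB4 by 33.9 kb, fell to 115 ± 9.96 with siSFPQ, against 206 ± 10.3 with siCtrl (log2 fold change -0.84, adjusted p = 1.2e-03). TP53TG1 stood at -0.03 on the log2 scale (adjusted p = 0.896).

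NEB overlaps RIF1 by 49.1 kb, and RIF1 averaged 1387 ± 177 with siSFPQ and 1468 ± 142 with siCtrl (log2 fold change -0.09, adjusted p = 0.506). On one side of NEB, RBM43 stood at -0.20 on the log2 scale (adjusted p = 0.304). Inside ANO3, ANO3-AS1 averaged 31.6 with siSFPQ and 7.77 with siCtrl, but whether counting used the strand is not given, so its reads and those of ANO3 cannot be told apart. The adjusted p was 0.998 for LUZP2, at 235 normalized reads with siSFPQ and 234 with siCtrl, and 1.2e-03 for BBOX1-AS1, at a log2 fold change of 0.50. Beside INPP4B, USP38 had 0.46 (adjusted p = 3.2e-03; 0.0586 without the second siCtrl library) and ZNF330 0.20 (adjusted p = 0.302).

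The neighbours of ZNF608 lie 999 kb and 744 kb away. The long non-coding RNA LINC02240 averaged 115 ± 20.9 with siSFPQ and 18.2 ± 0.918 with siCtrl (log2 fold change 2.57, adjusted p = 3.0e-06), and the keratin 18 pseudogene KRT18P16 averaged 26.3 and 2.94. KRT18P16 is uncertain, since reads of the near-identical parent gene could fall on it. Beside ABLIM1, AFAP1L2 (log2 fold change 0.14, adjusted p = 0.683) and FAM160B1 (0.23, adjusted p = 0.0588; 0.0448 with edgeR) lie 25.9 kb and 20.4 kb away and did not pass.

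**Figure D5:**
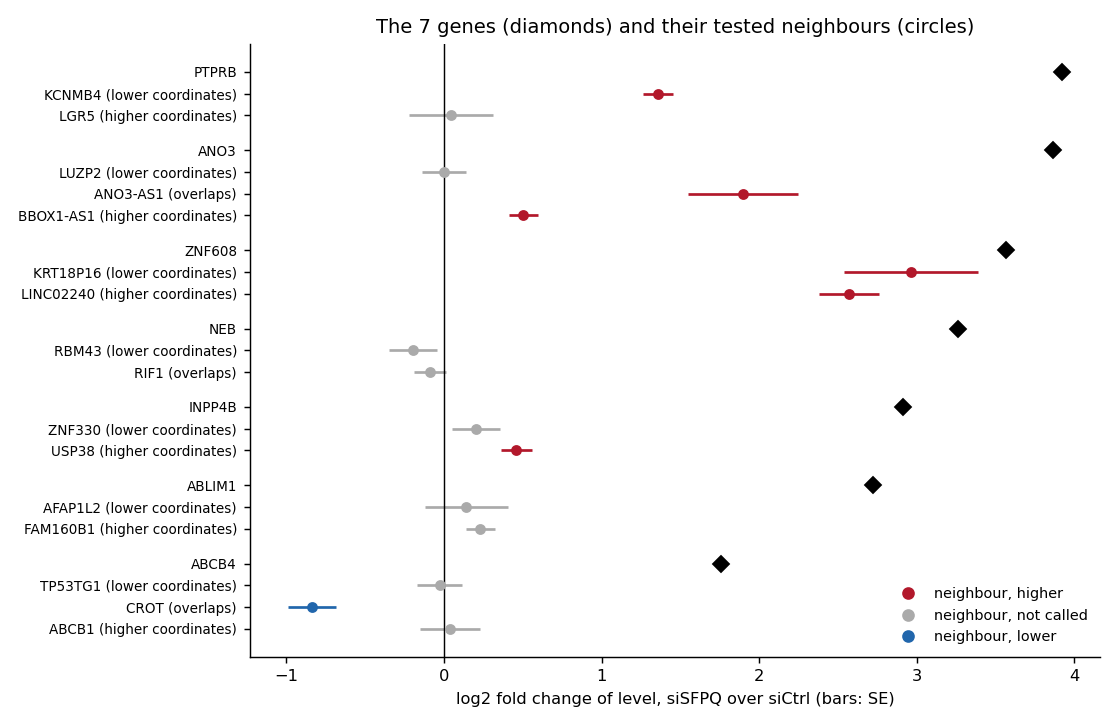
Log2 fold change of siSFPQ over siCtrl for the 7 genes (diamonds) and the neighbours named in the text (circles, with the SE as bars). The 7 genes were chosen by this fold change and the neighbours were not; CROT is the 1 neighbour that was lower.

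The families of the 7 genes were described by counts, leaving out the 7 genes themselves, beside 24.8% higher, 23.2% lower and a median log2 fold change of -0.02 over all tested features. Among tested features at least as long as ABCB4, 49.3% were higher and 12.9% lower. The lengths of the family members were not taken into account. Of 5 other tested anoctamins, 3 passed as higher (median 0.39). ANO10 averaged 977 with siSFPQ and 646 with siCtrl (log2 fold change 0.60, limma adjusted p = 1.1e-03), and ANO9 130 and 74.9 (0.76, adjusted p = 7.7e-03; 0.111 without the first siCtrl library). Both are far from the 3.87 of ANO3. Of 30 other tested ABC transporters, 6 were higher and 11 lower (median -0.02). ABCC4, which exports organic anions, rose by 0.67 (adjusted p = 3.3e-04). The peptide transporter subunit TAP2 fell by 0.85 on the log2 scale (adjusted p = 3.8e-04) and the retinal transporter ABCA4 by 0.90 (adjusted p = 6.1e-04).

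Receptor-type tyrosine phosphatases were higher more often than lower, with 7 of 11 other tested members higher and 1 lower (median 0.49). PTPRE averaged 1176 ± 197 with siSFPQ and 316 ± 3.74 with siCtrl (log2 fold change 1.88, adjusted p = 4.7e-07), and PTPRH 605 ± 99.4 and 169 ± 6.92 (1.82, adjusted p = 5.6e-06). PTPRN2, a member found in secretory granules, fell to 173 ± 29.4 with siSFPQ, against 411 ± 57.5 with siCtrl (-1.26, adjusted p = 3.4e-05). Endothelial markers were read beside PTPRB. Of 13 listed, 4 were tested and 3 were higher, among them the VEGF receptor FLT1, with 1150 ± 147 normalized reads with siSFPQ and 194 ± 20.5 with siCtrl (2.56, adjusted p = 1.2e-07), and TEK, a receptor on which PTPRB acts (110 ± 26.1 with siSFPQ and 43.5 ± 7.42 with siCtrl, adjusted p = 1.1e-03). The summed level of the tested endothelial markers lay between 1601 and 1929 with siSFPQ and between 716 and 751 with siCtrl. FLT1 makes up most of this difference, and ESAM, the tested marker that did not pass, averaged 411 with siSFPQ and 467 with siCtrl. The defining endothelial genes PECAM1, CDH5, KDR and VWF had no row in the table used here, and the part of this list in the PTPRB result was not tested.

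Of 23 other tested phosphoinositide phosphatases, 12 were higher and 3 lower (median 0.33). INPP5F averaged 1299 ± 150 with siSFPQ and 361 ± 4.53 with siCtrl (log2 fold change 1.84, adjusted p = 6.9e-07), and SYNJ2 1909 ± 388 and 696 ± 38.1 (1.43, adjusted p = 3.0e-06). INPP5A had -0.77 (adjusted p = 1.2e-04) and MTMR4 -0.99 (adjusted p = 1.4e-04). INPP4A, the paralogue of INPP4B, averaged 984 with siSFPQ and 1268 with siCtrl (-0.37, adjusted p = 0.0155) and so moved the other way from INPP4B. Of 17 tested PI3K and AKT genes, 9 were higher and 2 lower (median 0.47). The catalytic subunit gene PIK3CA (1.05, adjusted p = 1.3e-05) and PHLPP1, a phosphatase that acts on AKT (0.98, adjusted p = 1.8e-05), rose. PIK3R2 (-0.40, adjusted p = 5.9e-03; 0.0988 without the second siCtrl library) and PIK3C2B (-0.57, adjusted p = 0.0115; without siCtrl replicate 1 it was 0.123, and without replicate 2 0.0610) fell. INPP4A is named here for being the paralogue and was chosen after its values were seen.

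Nebulin's relatives and thin filament genes gave 6 higher and 3 lower of 15 other tested members (median 0.20). TMOD1, which caps the pointed end of actin filaments, averaged 1357 ± 203 with siSFPQ and 134 ± 1.24 with siCtrl (log2 fold change 3.32, adjusted p = 7.5e-08), close to the 3.26 of NEB. LASP1 had 0.68 (adjusted p = 2.4e-04), TMOD2 -0.70 (adjusted p = 0.0120; without siCtrl replicate 1 it was 0.102, and without replicate 2 0.0698) and ACTB -0.37 (adjusted p = 0.0211; 0.204 without the first siCtrl library and 0.0783 without the second siSFPQ-2 library). Skeletal muscle markers were read beside NEB. Of 17 listed, 5 were tested, with TNNT1 (0.83, adjusted p = 9.1e-05) and ACTA1 (0.92, adjusted p = 3.3e-03) higher and TNNT3 lower (-2.39, adjusted p = 8.4e-04). Their summed level lay between 870 and 933 with siSFPQ and between 742 and 767 with siCtrl. The muscle regulators MYOD1 and MYOG, and TTN, had no row in the table used here, and the part of this list in the NEB result was not tested.

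The list of actin-binding LIM proteins gave 14 higher and 4 lower of 23 other tested members, with a median log2 fold change of 0.64. It was drawn broadly and also holds DMTN and the kinase genes LIMK1 and LIMK2. LIMA1, which bundles actin, averaged 796 ± 200 with siSFPQ and 203 ± 2.27 with siCtrl (1.93, adjusted p = 9.7e-07), and LMO7 1114 ± 109 and 454 ± 38.8 (1.29, adjusted p = 4.8e-06). LDB3, a protein of the muscle Z-disc, fell to 885 ± 181 with siSFPQ, against 2740 ± 126 with siCtrl (-1.65, adjusted p = 1.0e-05), and LIMK2 had -0.52 (adjusted p = 1.4e-03). ZNF609 averaged 4820 ± 328 with siSFPQ and 2756 ± 177 with siCtrl (0.81, adjusted p = 1.2e-04), a smaller rise than that of its paralogue ZNF608. Hepatocyte markers, read beside ABCB4, gave 2 lower of 4 tested. APOB, the structural protein of secreted lipoproteins, had -2.13 (adjusted p = 0.0185), a call lost without either siCtrl library (0.128 and 0.104). Their summed level lay between 1098 and 1385 with siSFPQ and between 1606 and 1612 with siCtrl, and ALB and SERPINA1 had no row in the table used here. Of the small cell lung cancer and neuroendocrine markers, DLL3 (-0.83, adjusted p = 7.3e-03) and POU2F3 (-0.54, adjusted p = 0.0216) were lower, and both calls were lost without either siCtrl library (0.0555 to 0.153) and that of POU2F3 also with DESeq2 (0.0641). The 1 tested immune marker, CD79A, averaged 31.9 with siSFPQ and 13.2 with siCtrl and passed the filter only through the siSFPQ libraries.

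The genes most like each of the 7 across the 6 libraries were found by the root mean square difference of log2(value + 1) after subtraction of the siCtrl mean, among genes with a mean of at least 287 normalized reads. This is a description over 6 libraries that share their controls. The measure holds the rise over siCtrl that chose the 7 genes, so closeness among them follows in part from the choice. CASP4 (0.15) and COL13A1 (0.15) were nearest to ANO3, and CPM (0.12) and FAM171B (0.16) to ABCB4. CREB5 (0.17) and ANO3 (0.26) were nearest to PTPRB, RUNX2 (0.16) and SEMA3A (0.16) to ZNF608, and PLD1 (0.15) and FRMD4B (0.20) to NEB. ELF3 (0.17) and ABLIM1 (0.20) were nearest to INPP4B, and MET (0.19) and INPP4B (0.20) to ABLIM1. INPP4B and ABLIM1 were thus near each other, with log2 fold changes of 3.32 and 3.28 for siSFPQ-3 and of 2.51 and 2.16 for siSFPQ-2. MET, which encodes the receptor of hepatocyte growth factor, had a log2 fold change of 2.65 over both siRNAs, and CPM, a membrane carboxypeptidase, of 1.76.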

How the data were processed

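The submitters' processing notes name UMI-tools, Bowtie2, cutadapt 1.14, DESeq2 1.38.1 and SAMtools 1.3.1, and the builds hg38 and dm6, without order or role. The authors deposited a signal per feature as normalized reads, with a log2 fold change and an adjusted p-value of siSFPQ over siCtrl, and for each library the signal in 500 bins along 51991 genes. The annotation, the counted region, bin sizes and strand use are not stated there. All values (100%, to within 0.1 read) were whole multiples of what 1 read is worth in the library, 0.797 to 1.11, which gave the whole reads back.

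The 240 repeated lines were removed. Filtering required values of 10 or more in 2 or more libraries, and limma 3.58.1 (R 4.3.3, eBayes with a trend) was fitted once over the 3 groups to log2(value + 1). Fold changes on this scale understate the change of low genes. P-values were adjusted over all features tested by the Benjamini-Hochberg method, with a threshold of 0.05. Window ratios were fitted in the same way over genes with at least the median profile signal, after addition of a constant (0.0377 to 0.0420, the 5th percentile of the nonzero window means). The code was tested on simulated data. The alternatives were edgeR 4.0.16 and DESeq2 1.42.0 on the recovered reads, other constants, filters and windows, equal totals, a block by replicate number, and each library left out. RefSeq spans were matched through the symbol (18743 features), a synonym (454) or an accession (5).

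The 7 genes and the gene lists were chosen with earlier results of these data known. The other named genes were SFPQ, the neighbours of the 7 genes, the 2 genes nearest to each in pattern and, from each list, at most 2 per direction past the threshold, by smallest p. INPP4A, SYP and NEUROD1 were added after their values were seen. Some genes that the rule names are not reported here.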

Additional observations from a re-analysis of the deposited data

Results flagged for a closer look

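The 3 genes ABLIM1, ABCB4 and INPP4B passed the threshold in the test of the difference between the siRNAs, each close to it. With the libraries set to the same total none of the 3 passed (limma adjusted p = 0.0932, 0.0920 and 0.120). The log2 difference of siSFPQ-3 over siSFPQ-2 was 1.12 for ABLIM1, 0.93 for ABCB4 and 0.81 for INPP4B (limma, adjusted p = 0.0458, 0.0349 and 0.0477), and both siSFPQ-3 libraries lay above both siSFPQ-2 libraries in each. Leaving out either siCtrl library or the second siSFPQ-2 library ended each of these calls. Without either siCtrl library the log2 differences themselves were unchanged, since siCtrl enters only the shared estimate of spread.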

How the results depend on the processing

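Counts of calls depended on the settings. Between siSFPQ-3 and siSFPQ-2, 22 features passed, against 255 with DESeq2, 51 with edgeR, 5 at a pseudocount of 0.1, 3 at a minimum of 50 and 1 with equal totals, and between 0 (without either siCtrl library or the second siSFPQ-2 library) and 244 with 1 library left out. Lower calls against siCtrl, 5044 of all features and 30 in the lists and neighbours, ranged over 2433 to 5202 and 15 to 34 with 1 library left out, lowest without a siCtrl library. For ratios, 0 genes passed for late over early bins of the body, 66 with a constant 10 times smaller, 28 with other window limits and 0 to 1 with a library left out. For start over body, 748 passed, 1135 with the smaller constant, 54 with no filter and 0 to 2 with a library left out. For past-end over body, 27 passed, 199 with the larger and 129 with the smaller constant, 4 with no filter and 0 to 3 with a library left out. For upstream over body, 1115 passed, 210 with no filter and 0 to 23 with a library left out.

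Values near 0 changed sign. LUZP2 was 0.0085 with DESeq2 and 0.021 with edgeR, and ABCB1 -0.00047 with equal totals. With 1 library left out, LUZP2 ranged over -0.11 to 0.10, ABCB1 -0.056 to 0.13, RIF1 -0.19 to 0.011, LGR5 -0.14 to 0.23, AFAP1L2 -0.017 to 0.30, TP53TG1 -0.10 to 0.049 and the late-over-early ratio of ABCB4 -0.087 to 0.41. The cause was not tested. Of the other values, 1162 kept their direction and call.

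Same-numbered libraries deviated together with correlations of 0.0529 (siCtrl and siSFPQ-2), 0.0587 (siCtrl and siSFPQ-3) and 0.382 (siSFPQ-2 and siSFPQ-3). The numbers were not taken as a pairing, although the largest correlation was that of the 2 groups whose difference was tested. With a replicate block, 760 features passed between the siRNAs. Among them were ABCB4 (limma adjusted p = 5.6e-04), ABLIM1 (8.7e-04), INPP4B (1.3e-03) and PTPRB (0.00272). With this block SFPQ passed as lower (0.0492) and FAM160B1 as higher (0.0368) with siSFPQ than with siCtrl, and 0 start, 0 past-end and 178 upstream ratios passed. Few control reads, 139 to 1177 per gene, limit the siCtrl levels and profiles.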
